A study of Mus musculus with 8 samples.

Results

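Transcript levels of 10 Wnt pathway genes were followed in whole mouse brain, among 34299 genes in the count table: the ligands Wnt5a, Wnt7a and Wnt7b, the co-receptors Lrp5 and Lrp6, the effector Ctnnb1, the feedback target Axin2, and the transcription factors Lef1, Tcf7l1 and Tcf7l2. They were taken by gene name, and each name matched 1 row. The fetal WT group comprised 3 libraries of wild-type brain at gestation day 15, and the fetal KO group 3 libraries of Cav1 knockout brain at the same gestation day. The week 70 KO group comprised 2 libraries of Cav1 knockout brain at week 70. Cav1 encodes caveolin 1, the main coat protein of caveolae, and no allele other than the Cav1 knockout is named in the labels. The strain, the way the knockout was made, the sex of the animals and any pooling are not given in the labels. The fetal libraries are described there as biological replicates, which is not said of the week 70 libraries. Brains of wild-type mice at week 70 are not analysed here, so genotype is compared at the fetal age only.

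In the canonical Wnt pathway a secreted Wnt protein binds a Frizzled receptor together with LRP5 or LRP6, and the destruction complex of AXIN, APC, GSK3 and CK1 then stops marking beta-catenin for degradation. Beta-catenin, the product of Ctnnb1, enters the nucleus and binds TCF and LEF proteins on target genes, among them Axin2, which feeds back on the pathway. In the developing brain Wnt signals pattern the forebrain and keep progenitors dividing, and WNT7A and WNT7B from neural progenitors signal to endothelial cells through the receptor cofactors ADGRA2 and RECK during growth of brain vessels and formation of the blood-brain barrier. Most control of beta-catenin acts on the protein, which was not measured here.

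Promoter sequence is shown for Axin2, Lef1 and Tcf7l2, a Wnt target and 2 genes of the nuclear factors, because TCF and LEF proteins bind DNA directly. The Tcf7l1 window, of which 209 bases lie in an exon of the gene, is not printed. The motif searched was CTTTGA, or TCAAAG on the other strand, the core of the TCF and LEF recognition sequence, in the 250 bases before each RefSeq transcript start on GRCm38.p6. Windows were at hand for 6 of the 10 genes, 11 windows in all, and none for Wnt5a, Wnt7b, Lrp5 and Lrp6. Of the 32841 windows of this length in the table, 4543 held the motif (13.8%). Among the 11 windows only 1 held it, at the internal start of Lef1, where TCAAAG begins 180 and 120 bases before the start. Bases are in lower case and the motif is in capitals, and each window is on the plus strand at chr11:108920099-108920348 for Axin2, chr3:131110047-131110296 for the first Lef1 start, chr3:131156044-131156293 for the internal Lef1 start and chr19:55741560-55741809 for the first Tcf7l2 start. None of the 4 windows overlapped an exon of its gene in GENCODE M21.
Axin2: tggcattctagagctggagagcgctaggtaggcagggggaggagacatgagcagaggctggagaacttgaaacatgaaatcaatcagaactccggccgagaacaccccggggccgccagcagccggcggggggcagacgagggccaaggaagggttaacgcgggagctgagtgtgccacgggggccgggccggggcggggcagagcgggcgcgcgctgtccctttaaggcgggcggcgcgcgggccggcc
Lef1, first start: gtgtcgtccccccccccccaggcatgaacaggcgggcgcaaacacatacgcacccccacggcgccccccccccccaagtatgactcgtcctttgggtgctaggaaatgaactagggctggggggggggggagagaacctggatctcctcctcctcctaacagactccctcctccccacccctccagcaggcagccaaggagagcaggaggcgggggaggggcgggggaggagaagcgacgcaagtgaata
Lef1, internal start: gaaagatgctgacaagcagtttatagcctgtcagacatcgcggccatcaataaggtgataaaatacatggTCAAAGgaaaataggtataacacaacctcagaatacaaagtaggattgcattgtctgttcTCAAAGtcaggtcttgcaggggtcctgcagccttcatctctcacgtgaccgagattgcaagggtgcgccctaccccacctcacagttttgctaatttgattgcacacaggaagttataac
Tcf7l2, first start: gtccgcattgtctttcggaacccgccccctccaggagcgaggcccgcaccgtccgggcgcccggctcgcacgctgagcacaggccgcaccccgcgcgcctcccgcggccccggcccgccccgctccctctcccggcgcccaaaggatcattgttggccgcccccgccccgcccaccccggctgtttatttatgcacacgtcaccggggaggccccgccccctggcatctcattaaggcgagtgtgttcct
G and C made up 69.2% of bases in the Axin2 window, 66.4% in the first Lef1 window and 72.8% in the Tcf7l2 window, whereas the internal Lef1 window had 44.8%. A match is a string of letters and not a measured binding site.

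Total counts per library ran from 19414747 to 20833397 in fetal WT, from 14110031 to 15245283 in fetal KO and from 18924304 to 20203233 in week 70 KO, so every fetal KO library was shallower than every fetal WT library. Cav1 itself had 367, 218 and 329 counts in the fetal WT libraries, 0, 3 and 1 in fetal KO, and 1 and 5 in week 70 KO. Reads assigned to processed pseudogenes made up 3.25% to 3.35% of counts in fetal WT, 5.56% to 5.86% in fetal KO and 0.257% to 0.264% at week 70, and mitochondrial reads 1.26% to 1.35%, 3.3% to 3.87%, and 4.41% to 5.43%. Fetal WT replicate 1 stood apart in fibroblast and meningeal markers, at a summed 4496 CPM (read counts per gene scaled to library size, with TMM factors) against 333 and 553 CPM in the other WT libraries. It also stood apart in cartilage and bone markers (759 against 196 and 180 CPM) and skeletal muscle markers (70.9 against 10.9 and 11.5 CPM). The week 70 libraries differed in sex-linked transcripts, with 7969 Xist and 0 Y-linked counts in replicate 1 against 4 and 2219 in replicate 2, while the 6 fetal libraries had 54531 to 93272 Xist counts and 0 to 4 Y-linked counts. Neuronal markers were present in all 8 whole-brain libraries, at a summed 5010 to 8896 CPM. The week 70 libraries also differed in choroid plexus markers, at a summed 76.3 CPM in replicate 1 and 2463 CPM in replicate 2.

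The first comparison asked how the fetal brain differs between Cav1 knockout and wild type. All 10 Wnt genes were lower in fetal KO than in fetal WT, by 1.39-fold for Lrp6 to 8.16-fold for Tcf7l1, and in none of them did the ranges of the 3 KO and 3 WT libraries overlap. All 10 passed the test in edgeR, with a median log2 fold change of -1.18, and 8 passed it after a correction for transcript length and GC content given further on. Change was common in this comparison: 62.6% of 19147 tested genes were called, 32.5% as lower, and 36.2% were lower with no overlap between the groups. The median log2 fold change over all tested genes was 0.03 and the median size, regardless of sign, was 0.52. The plot of levels by library shows the fetal KO points below the fetal WT points for every gene.

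**Figure D1:**
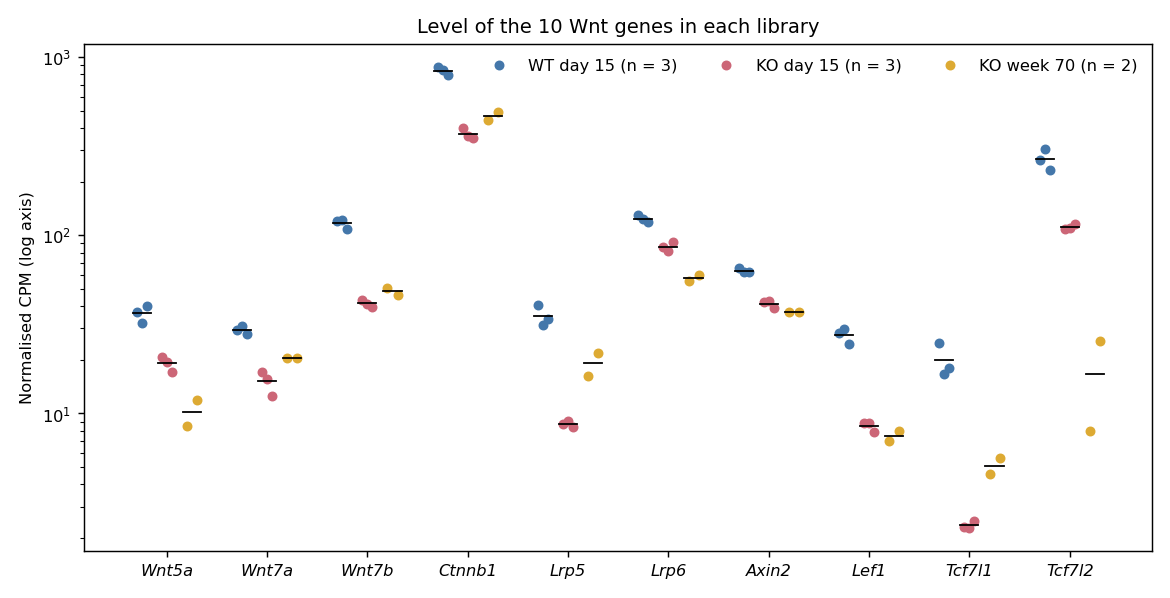
TMM-normalised CPM on a log axis for the 10 Wnt genes, 1 point per library with a bar at the group mean, for 3 fetal WT, 3 fetal KO and 2 week 70 KO libraries. Fetal KO points lie below all fetal WT points for each gene, and the 2 week 70 points of Tcf7l2, at 7.98 and 25.4 CPM, are the farthest apart of any group.

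Among the ligands, Wnt5a acts mainly through the planar cell polarity and calcium branches of the pathway (chr14:28504750-28527448, plus strand, on GRCm38). It had 37.3, 32 and 40.1 CPM in fetal WT replicates 1 to 3 and 20.8, 19.5 and 17.2 CPM in fetal KO. It was 1.85-fold lower in KO (log2 fold change -0.89, SE 0.103, edgeR adjusted p = 2.8e-05). Wnt7a (chr6:91363981-91411363, minus strand) and Wnt7b (chr15:85535437-85582473, minus strand) encode closely related canonical ligands made by neural progenitors. Wnt7a had 29.4, 30.9 and 27.8 CPM in WT and 17.2, 15.7 and 12.5 CPM in KO. Its level was 1.89-fold lower in KO (log2 fold change -0.92, SE 0.115, edgeR adjusted p = 4.98e-05). Wnt7b, the most abundant of the 3 ligands per kilobase in every group, had 121, 122 and 109 CPM in WT and 43.6, 41.1 and 39.6 CPM in KO. It was 2.75-fold lower in KO (log2 fold change -1.46, 95% interval -1.60 to -1.32, edgeR adjusted p = 3.96e-08). The interval was -1.12 to -0.66 for Wnt5a and -1.17 to -0.66 for Wnt7a, both closer to 0.

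The co-receptors bind Wnt together with a Frizzled receptor, and both were lower in fetal KO. Lrp5 (chr19:3584828-3686564, minus strand) had 40.7, 31.5 and 33.9 CPM in fetal WT and 8.74, 9.07 and 8.35 CPM in fetal KO, a 3.94-fold lower level (log2 fold change -1.98, 95% interval -2.22 to -1.73, edgeR adjusted p = 1.42e-07). Lrp6 (chr6:134446476-134566965, minus strand), the more abundant of the pair, had 130, 123 and 118 CPM in WT and 86.2, 82.1 and 91.2 CPM in KO. It was 1.39-fold lower in KO, the smallest change of the 10 genes (log2 fold change -0.48, 95% interval -0.61 to -0.34, edgeR adjusted p = 5.81e-05). The size of the Lrp6 change exceeded that of 46.7% of all tested genes and the size of the Lrp5 change that of 97.3%.

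Ctnnb1 (chr9:120929216-120960507, plus strand), which encodes beta-catenin and serves both Wnt signalling and cadherin junctions, had the highest level of the 10 genes per kilobase of exon in every group. It stood at 880, 848 and 792 CPM in fetal WT and at 401, 359 and 351 CPM in fetal KO. Its level was 2.21-fold lower in KO (log2 fold change -1.14, SE 0.0679, edgeR adjusted p = 2.14e-07). Axin2 (chr11:108920349-108950783, plus strand), a widely used readout of canonical Wnt activity because it is a direct target in many tissues, had 65.8, 62 and 62.2 CPM in WT and 42.2, 42.7 and 39.2 CPM in KO. It was 1.49-fold lower in KO (log2 fold change -0.57, SE 0.0604, edgeR adjusted p = 1.34e-05), which exceeded the size of the change in 54.4% of all tested genes.

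All 3 TCF and LEF genes fell. Lef1 (chr3:131110471-131224356, plus strand) encodes a DNA-binding partner of beta-catenin that is itself a Wnt target in several tissues. Its levels were 28.3, 29.8 and 24.4 CPM in fetal WT and 8.86, 8.85 and 7.83 CPM in fetal KO, 3.15-fold lower in KO (log2 fold change -1.65, SE 0.11, edgeR adjusted p = 4.72e-07). Tcf7l1 (chr6:72626378-72789254, minus strand) encodes a family member that acts mainly as a repressor in stem and progenitor cells. Its levels were 25, 16.6 and 17.9 CPM in WT and 2.31, 2.28 and 2.49 CPM in KO. This was the largest change of the 10 genes (8.16-fold lower, log2 fold change -3.03, 95% interval -3.43 to -2.63, edgeR adjusted p = 2.09e-07), larger in size than 99.7% of all tested genes. Tcf7l2 (chr19:55741820-55933654, plus strand), expressed strongly in the developing thalamus, had 266, 304 and 233 CPM in WT and 108, 110 and 116 CPM in KO. It was 2.34-fold lower in KO (log2 fold change -1.23, SE 0.0934, edgeR adjusted p = 1.23e-06).

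Fold changes between the fetal groups followed base composition and length across genes. Over 19050 genes the Spearman correlation was -0.48 with the GC content and -0.37 with the length of the longest transcript. GC-rich and long genes thus tended to be lower in KO. After a correction for both, 8 of the 10 genes were still called lower, as were 25.8% of all tested genes. Axin2 (0.05, edgeR adjusted p = 0.453) and Lrp6 (-0.09, edgeR adjusted p = 0.202) were no longer called. On the log2 scale the corrected change was -0.49 for Wnt5a, -0.43 for Wnt7a, -0.71 for Wnt7b and -1.01 for Lrp5, each moved by more than 1.5 times. It was -0.88 for Ctnnb1, -1.68 for Lef1, -2.34 for Tcf7l1 and -1.16 for Tcf7l2. The part of base composition, length or depth in the uncorrected changes was not tested beyond this correction. Without fetal WT replicate 1 all 10 genes were called lower, with -2.85 for Tcf7l1 and -1.89 for Lrp5. Upper-quartile scaling moved the median of all genes to 0.20 and the share of calls that were higher from 48.1% to 60.8%, and all 10 genes were called lower under it too.

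**Figure D2:**
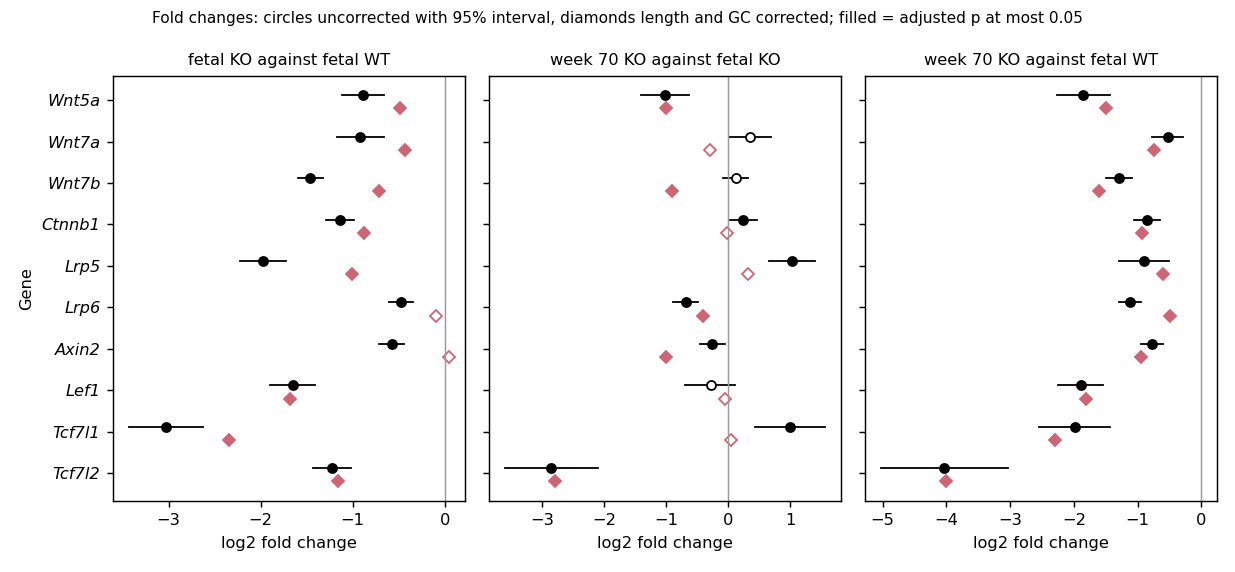
Log2 fold changes of the 10 Wnt genes in the 3 comparisons. Circles are uncorrected values with their 95% intervals, diamonds the values after the length and GC correction, and filled symbols passed an edgeR adjusted p of 0.05. In the fetal comparison every filled circle lies below 0 and the diamonds of Lrp6 and Axin2 are open. The week 70 against fetal KO panel holds values on both sides of 0.

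Beyond the 10 genes, the lists of the pathway held 102 other genes in the table, of which 95 were tested between the fetal groups. The test called 74 of them lower (77.9%), beside 32.5% of all tested genes. It called 2 higher, 19 did not pass, and their median log2 fold change was -0.97. After the length and GC correction, with 25.8% of all tested genes lower, 58 were lower and 7 higher, with a median of -0.54. Of the receptors and co-receptors, 13 of 15 tested were lower and none higher. After the correction 13 were lower as well, of which 12 were the same genes. Fzd1, a Frizzled receptor, went from 90.6 ± 9.28 CPM in WT (SD, n = 3) to 25.9 ± 1.68 CPM in KO (SD, n = 3), a log2 fold change of -1.77 (edgeR adjusted p = 5.13e-08) that was -1.09 after the correction. Fzd3, a Frizzled gene known for axon guidance, had 289 ± 18.7 and 266 ± 23 CPM (log2 fold change -0.08, edgeR adjusted p = 0.407), and it was called lower after the correction (-0.26, edgeR adjusted p = 0.00294). Ryk, an atypical Wnt receptor, had 65.8 ± 4.72 and 70.5 ± 3.49 CPM (log2 fold change 0.14, edgeR adjusted p = 0.0912).

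Of the 12 other ligands tested, 6 were lower and none higher, with a median log2 fold change of -0.84, beside 32.5% of all tested genes lower. Only 2 were lower after the correction, no larger a share than the 25.8% of all tested genes. Wnt9a fell from 4.54 ± 1.88 to 1.81 ± 0.447 CPM (edgeR adjusted p = 0.00492) and Wnt3 from 10.3 ± 0.852 to 7.09 ± 1.03 CPM (edgeR adjusted p = 0.0114), and neither was called after the correction. Wnt4 had 5.61 ± 1.67 and 4.18 ± 0.163 CPM (edgeR adjusted p = 0.145) and was not called after the correction either, where its sign turned (0.30). Wls, which carries Wnt proteins to the cell surface, fell from 51.3 ± 5.99 to 33.4 ± 2.85 CPM (log2 fold change -0.58, edgeR adjusted p = 0.000301), and its corrected change was larger, at -0.98. Porcn, which attaches the lipid that Wnt proteins need, had 43.1 ± 1.37 and 39.5 ± 4.49 CPM (edgeR adjusted p = 0.372), and was called higher after the correction (log2 fold change 0.29).

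Genes of secreted antagonists fell too. The counts below stand beside 32.5% of all tested genes called lower, or 25.8% after the correction. Among secreted antagonists 10 of 14 tested were lower and none higher, and 11 were lower after the correction. Sfrp1, which binds Wnt proteins outside the cell, fell from 120 ± 10.6 to 37.1 ± 1.04 CPM (log2 fold change -1.65, edgeR adjusted p = 3.59e-08). Draxin, a secreted guidance protein that also antagonises canonical Wnt signalling, fell from 210 ± 10.6 to 69.8 ± 2.52 CPM (log2 fold change -1.55, edgeR adjusted p = 2.75e-08), with a corrected change of -0.81. Of the 16 other Dishevelled and destruction complex genes tested, which are not all inhibitors, 14 were lower and 1 higher, but 9 and 2 after the correction. The 2 were the Dishevelled genes Dvl1 and Dvl2, with corrected log2 fold changes of 0.98 and 0.30. Apc2, the neuronal relative of Apc, fell from 943 ± 43.1 to 229 ± 38.1 CPM (log2 fold change -2.00, edgeR adjusted p = 1.11e-07), with a corrected change of -0.70. Apc itself fell from 636 ± 20 to 525 ± 17.3 CPM (log2 fold change -0.24, edgeR adjusted p = 0.00565) and was not called after the correction (edgeR adjusted p = 0.424). Csnk1a1, the kinase that primes beta-catenin for degradation, was the gene that rose, from 443 ± 2.26 to 497 ± 13.2 CPM (log2 fold change 0.21, edgeR adjusted p = 0.00834), and its corrected change was 0.00.

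Of the other Wnt target genes, 9 of 13 tested were lower and none higher, and 8 were lower after the correction. For this list and those below, the shares of all tested genes lower were 32.5% before and 25.8% after the correction. Apcdd1, an inhibitor induced by the pathway, fell from 132 ± 8.01 to 31.6 ± 4.9 CPM (log2 fold change -2.02, edgeR adjusted p = 5.32e-08). Ccnd1, which encodes cyclin D1, fell from 60.6 ± 8.7 to 19.5 ± 2.6 CPM (log2 fold change -1.60, edgeR adjusted p = 8.05e-07). Nkd1, a feedback inhibitor that binds Dishevelled, fell from 50.2 ± 2.42 to 23.4 ± 2.8 CPM (log2 fold change -1.06, edgeR adjusted p = 2.33e-06), with a corrected change of -0.55. Among the partners of beta-catenin and the TCF factors 9 of 11 were lower and 1 higher, but 6 and 2 after the correction. Bcl9l, a beta-catenin coactivator, fell from 167 ± 6.56 to 44.7 ± 2.78 CPM (log2 fold change -1.86, edgeR adjusted p = 1.59e-08), with a corrected change of -0.68. All 9 planar cell polarity genes were lower, with a median of -1.00, but after the correction 6 were lower and 2 higher. Celsr2 was at -1.78 before and -0.64 after it, and Celsr3 at -0.68 before and 0.41 after it, both called in each case.

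**Figure D3:**
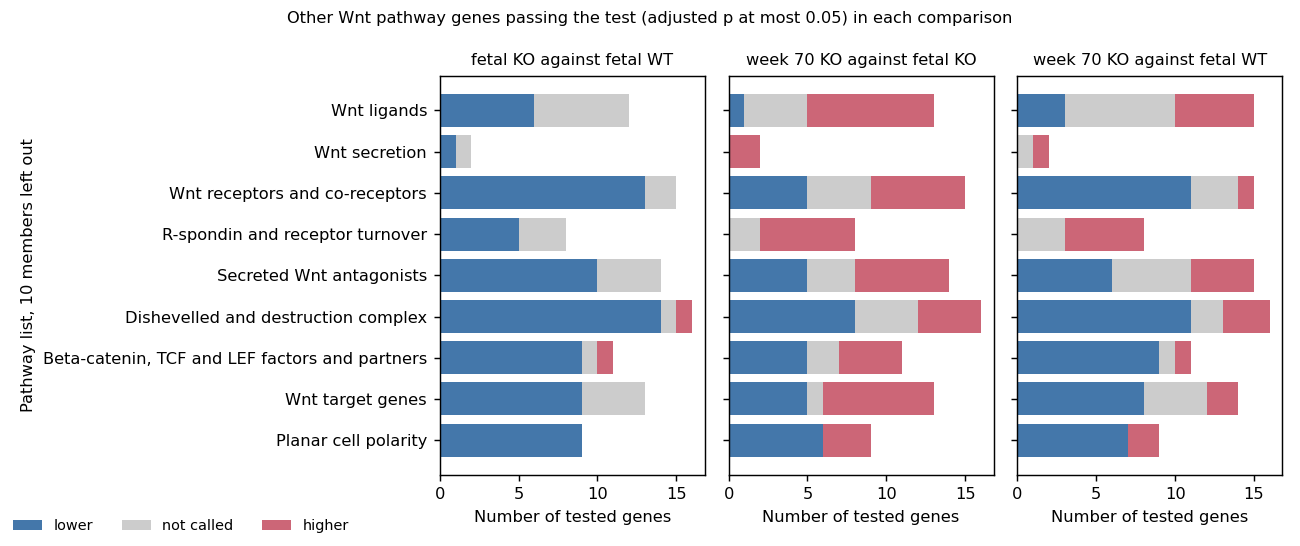
Number of tested genes called lower, not called or called higher by edgeR (adjusted p at most 0.05) in 9 Wnt pathway lists without the 10 genes, for each comparison. Some genes stand in more than 1 list. Lower calls outnumber higher calls in every fetal list, and ligands and R-spondin genes hold mostly higher calls at week 70 against fetal KO.

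Marker genes of several cell types differed between the same fetal groups. Over all tested genes, 32.5% were called lower, or 25.8% after the length and GC correction. In these bulk samples fewer cells of a type and less RNA per cell cannot be told apart. Endothelial markers were lower in 9 of 10 genes, at a summed 215 to 297 CPM in WT and 72.3 to 90.4 CPM in KO, and blood-brain barrier markers in 8 of 10 genes with 1 higher, at 225 to 254 and 100 to 117 CPM. Cortical hem and Cajal-Retzius markers, from a Wnt-producing margin of the cortex and the neurons it gives rise to, were lower in 9 of 10 genes, at 466 to 480 and 164 to 180 CPM. That list includes 4 Wnt pathway genes (Wnt3a, Wnt8b, Rspo1 and Rspo2), and of its 6 other genes 5 were lower, at 446 to 463 and 156 to 172 CPM. Radial glia and progenitor markers were lower in 8 of 10 genes and higher in 2, at 1520 to 1594 and 1227 to 1329 CPM. Fabp7, 1 of the 2 higher genes, weighed most in the KO sum, with 282 ± 30.7 CPM in WT and 786 ± 41 CPM in KO. The sum thus understates the fall of the 8 lower genes. Among these, Vim had 483 ± 45.7 and 176 ± 4.48 CPM and Nes 294 ± 23.4 and 54.2 ± 3.52 CPM. Thalamic markers other than the Wnt genes, a tissue where Tcf7l2 is strong, overlapped between the groups in their sum, at 452 to 482 and 425 to 464 CPM, but 4 of the 8 genes were called lower and 1 higher. Among them Gbx2 had 9.11 ± 1.07 CPM in WT and 2.85 ± 0.794 CPM in KO. Neuronal sums were also lower without overlap, at 5931 to 6522 CPM in WT and 5010 to 5151 CPM in KO. Only 5 of the 10 neuronal genes were called lower, however, and 3 were higher. Tubb3 had 1505 ± 50.5 and 638 ± 67 CPM, and Stmn2 630 ± 62.9 and 914 ± 11.5 CPM. Sums of astrocytes (611 to 695 and 284 to 311 CPM) and the oligodendrocyte lineage (167 to 207 and 109 to 127 CPM) were lower without overlap too. Of 10 tested genes in each, 7 and 6 were lower and 1 and 2 higher. The same held for microglia, pericytes and smooth muscle, fibroblasts, and cartilage and bone, with 4 of 9, 7 of 9, 7 of 10 and 7 of 7 tested genes lower. In microglia and in pericytes and smooth muscle 1 gene each was higher. Rgs5, at 70.7 ± 6.03 and 105 ± 7.75 CPM, weighed most in the KO pericyte sum. Col2a1 and Sox9, at 41.3 ± 3 and 19.4 ± 1.27 CPM in KO, weighed most in the cartilage and bone sum. Choroid plexus, dentate, skin and skeletal muscle sums overlapped, although 4 of 7 tested dentate genes were lower and none higher. Red blood cell markers were higher in 6 of 9 tested genes and lower in 2, the embryonic globins Hbb-y and Hba-x, at 1044 to 1325 CPM in WT and 3605 to 4432 CPM in KO. After the length and GC correction Pax6 (edgeR adjusted p = 0.371) and Hes5 (edgeR adjusted p = 0.14) lost their lower calls. So did Rspo1 (edgeR adjusted p = 0.344) of the hem list and Prkcd (edgeR adjusted p = 0.068) of the thalamic list. Hopx (edgeR adjusted p = 0.916) and the barrier gene Slco1c1 (edgeR adjusted p = 0.727) lost their higher calls. The endothelial list lost none. No marker of the endothelial, barrier, hem, radial glia or thalamic lists was at 3 counts or fewer throughout a fetal group. The part of these cell types in the fall of the Wnt genes was not tested.

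**Figure D4:**
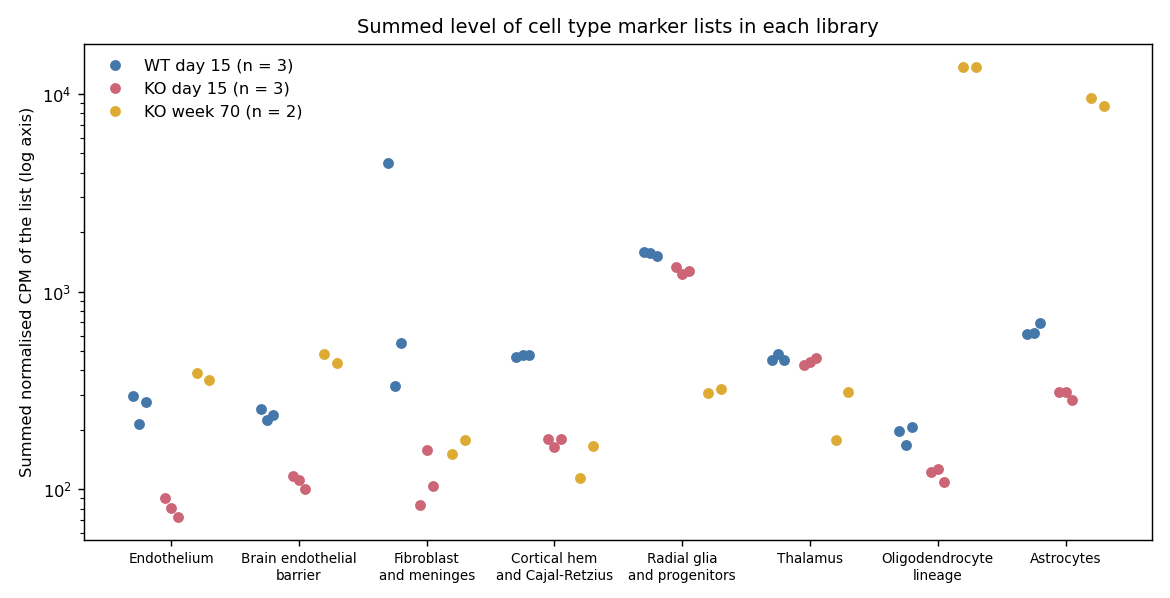
Summed TMM-normalised CPM of 8 cell type marker lists, on a log axis, 1 point per library. Fetal KO points lie below fetal WT points for every list shown except the thalamic one, where the sums of the fetal groups overlap. Fetal WT replicate 1 stands at 4496 CPM in the fibroblast list.

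The second comparison set the week 70 KO brain against the fetal KO brain, which asks how levels differ with age in the knockout. Of the 10 genes Wnt5a, Lrp6, Axin2 and Tcf7l2 fell, Ctnnb1, Lrp5 and Tcf7l1 rose, and Wnt7a, Wnt7b and Lef1 did not pass the test. After the length and GC correction the tally was different, with none of the 10 higher and 5 lower (Wnt5a, Wnt7b, Lrp6, Axin2 and Tcf7l2), where 36.3% of all tested genes were called lower and 42% higher. Before the correction the median log2 fold change of the 10 genes was -0.06. In edgeR 82% of 20000 tested genes were called, 44.4% as lower and 37.6% as higher, and the groups did not overlap in 87.9%. The median over all genes was -0.19 and the median size of change 1.40, so 7 of 10 called is below the share of all genes. Lef1 was the 1 gene of the 10 whose groups overlapped. Markers of mature glia differed between the same groups: oligodendrocyte lineage markers summed to 109 to 127 CPM in fetal KO and 13659 to 13770 CPM at week 70, and astrocyte markers to 284 to 311 and 8713 to 9504 CPM. Endothelial markers, at 72.3 to 90.4 CPM in fetal KO, were at 359 to 389 CPM at week 70, with 10 of 10 higher. The part of these cell types in the changes was not tested.

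Tcf7l2 changed most. Its levels of 108, 110 and 116 CPM in fetal KO stood against 7.98 and 25.4 CPM at week 70, from 121 and 368 counts, a 7.19-fold lower level (log2 fold change -2.85, SE 0.334, edgeR adjusted p = 1.71e-05). The week 70 libraries lay far apart for this gene, and its log2 fold change was -2.22 without replicate 1 and -3.90 without replicate 2, with the lone library assumed to vary like the fetal ones. Thalamic markers other than the Wnt genes also differed between these libraries in their sum, at 178 CPM in replicate 1 and 310 CPM in replicate 2, and at 425 to 464 CPM in fetal KO. Slc17a6, the glutamate transporter of thalamic neurons, had 26.3 and 88.9 CPM in replicates 1 and 2, Prkcd 12.5 and 37.9 CPM, Calb2 13.5 and 59.7 CPM, and Lhx9 1.78 and 8.76 CPM. The other 4 of the 8 did not follow Tcf7l2: Foxp2 had 26.2 and 15 CPM, Gbx2 0.396 and 0.276 CPM, Rora 96.9 and 99.3 CPM, and Olig3 0 counts in both. The part of tissue sampling in the Tcf7l2 level was not tested.

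Wnt5a had 20.8, 19.5 and 17.2 CPM in fetal KO and 8.51 and 11.9 CPM at week 70, a fall of 2.02-fold (log2 fold change -1.01, SE 0.174, edgeR adjusted p = 0.000319). Lrp6 had 86.2, 82.1 and 91.2 CPM against 55.4 and 60 CPM at week 70 and fell by 1.61-fold (log2 fold change -0.68, SE 0.0915, edgeR adjusted p = 4.85e-05). Both remained called lower after the length and GC correction, at -1.00 and -0.40. Lrp5 went the other way from its partner Lrp6, from 8.74, 9.07 and 8.35 CPM to 16.3 and 21.9 CPM (2.04-fold higher, log2 fold change 1.03, edgeR adjusted p = 0.000204). Tcf7l1 had 2.31, 2.28 and 2.49 CPM in fetal KO and 4.55 and 5.59 CPM at week 70 (log2 fold change 1.00, SE 0.258, edgeR adjusted p = 0.00438). Neither rise was called after the correction, which gave 0.33 for Lrp5 (edgeR adjusted p = 0.0661) and 0.05 for Tcf7l1 (edgeR adjusted p = 0.867).

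The remaining changes were small. Ctnnb1 had 401, 359 and 351 CPM in fetal KO and 444 and 495 CPM at week 70 (log2 fold change 0.24, edgeR adjusted p = 0.0368), and its sign was -0.01 under upper-quartile scaling and under the correction. That call was also lost without fetal KO replicate 2 (0.22), without fetal KO replicate 3 (0.21) and without week 70 replicate 2 (0.16). Axin2 had 42.2, 42.7 and 39.2 CPM against 37.3 in both week 70 libraries (log2 fold change -0.25, edgeR adjusted p = 0.03). It lost its call without fetal KO replicate 1 (-0.23), fetal KO replicate 2 (-0.22), week 70 replicate 1 (-0.24) or week 70 replicate 2 (-0.24), and the correction moved it to -1.00 (edgeR adjusted p = 2.82e-06).

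Wnt7a had 17.2, 15.7 and 12.5 CPM in fetal KO and 20.6 CPM in both week 70 libraries, which lay above all fetal KO values (log2 fold change 0.35, 95% interval 0.01 to 0.69, edgeR adjusted p = 0.0551). It passed the test without fetal KO replicate 1, at 0.44, and the correction turned its sign, to -0.29 (edgeR adjusted p = 0.0757). Wnt7b had 43.6, 41.1 and 39.6 CPM and then 50.6 and 46.2 CPM (log2 fold change 0.13, 95% interval -0.08 to 0.33, edgeR adjusted p = 0.232). Its sign was the opposite under upper-quartile scaling, at -0.12, and after the correction it was called lower, at -0.90 (edgeR adjusted p = 1.58e-05). Lef1 had 8.86, 8.85 and 7.83 CPM against 6.99 and 8 CPM (log2 fold change -0.28, 95% interval -0.69 to 0.12, edgeR adjusted p = 0.174), and it was called under upper-quartile scaling, at -0.53, where the median of all genes moved from -0.19 to -0.44.

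Of the 96 other pathway genes tested between the ages, 42 were higher and 35 lower, beside 37.6% higher and 44.4% lower of all tested genes. The share called was thus near that of all genes. Their median log2 fold change was 0.16, and after the correction 35 were higher and 43 lower. Ligands other than the 3 described above rose more often than they fell, with 8 of 13 higher and 1 lower, but 6 and 4 after the correction. Wnt9a rose from 1.81 ± 0.447 CPM in fetal KO (SD, n = 3) to 25.1 and 21.3 CPM at week 70 (log2 fold change 3.57, edgeR adjusted p = 7.76e-08), and Wnt4 from 4.18 ± 0.163 CPM to 22.1 and 17 CPM (log2 fold change 2.13, edgeR adjusted p = 1.19e-06), the latter 1.28 after the correction. Of the R-spondin and receptor turnover genes 6 of 8 were higher and none lower. After the correction 6 were higher again, of which 5 were the same genes. Lgr4, a receptor for R-spondins, rose from 18.3 ± 1.01 CPM to 46.6 and 47 CPM (log2 fold change 1.26, edgeR adjusted p = 7.83e-07).

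Dkk3 and Draxin, both in the list of secreted antagonists, moved far apart with age. Dkk3, a divergent Dickkopf family member that is abundant in mature neurons, rose from 8.49 ± 1.68 CPM in fetal KO to 492 and 629 CPM at week 70 (log2 fold change 5.95, edgeR adjusted p = 2.87e-10). Draxin fell from 69.8 ± 2.52 CPM to 0.528 and 1.66 CPM (log2 fold change -6.10, edgeR adjusted p = 3.21e-09). Of the targets, Ccnd1 rose from 19.5 ± 2.6 CPM to 57.3 and 49.9 CPM (log2 fold change 1.36, edgeR adjusted p = 2.19e-06). In the target list 7 of 13 were higher and 5 lower, beside 37.6% higher and 44.4% lower of all tested genes. Higher calls numbered 3 under upper-quartile scaling, and 4 without fetal KO replicate 2 or replicate 3. After the correction they numbered 4 of 13, where 42% of all tested genes were higher. Celsr3 fell from 257 ± 25.5 CPM to 41.6 and 58.5 CPM (log2 fold change -2.46, edgeR adjusted p = 9.29e-08). Fzd3 fell from 266 ± 23 CPM to 88.5 and 84.2 CPM (log2 fold change -1.72, edgeR adjusted p = 8.05e-08), and its corrected change was much smaller, at -0.36 (edgeR adjusted p = 0.00399).

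The third comparison set week 70 KO against fetal WT, where genotype and age differ together and cannot be told apart. It shares its libraries with the other comparisons, so it adds no separate evidence on them. All 10 genes were lower at week 70, with no overlap between the groups and a median log2 fold change of -1.20. In edgeR 78.6% of 19465 tested genes were called, 41.9% as lower, and 46.3% were lower with no overlap. The median over all genes was -0.16 and the median size of change 1.25.

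Tcf7l2 was again the farthest apart, with 266, 304 and 233 CPM in fetal WT and 7.98 and 25.4 CPM at week 70 (16.3-fold lower, log2 fold change -4.03, SE 0.423, edgeR adjusted p = 8.14e-05), and values of -3.41 and -5.08 without week 70 replicates 1 and 2. Tcf7l1 was 3.96-fold lower, at 25, 16.6 and 17.9 CPM against 4.55 and 5.59 CPM (edgeR adjusted p = 0.000163). Lef1 was 3.71-fold lower, at 28.3, 29.8 and 24.4 CPM against 6.99 and 8 CPM (edgeR adjusted p = 1.74e-05). Wnt5a was 3.62-fold lower (edgeR adjusted p = 4.53e-05), Wnt7b 2.44-fold (edgeR adjusted p = 6.43e-06) and Lrp6 2.17-fold (edgeR adjusted p = 7.26e-06). The smaller changes were those of Lrp5, 1.87-fold lower (edgeR adjusted p = 0.00173), Ctnnb1, 1.81-fold lower (edgeR adjusted p = 6.59e-05), Axin2, 1.71-fold lower (edgeR adjusted p = 4.53e-05), and Wnt7a, 1.44-fold lower (edgeR adjusted p = 0.00222). All 10 were called lower after the length and GC correction, beside 36.3% of all tested genes, from -0.50 for Lrp6 to -4.01 for Tcf7l2. Before the correction, 54 of the other 99 pathway genes tested were lower (54.5%) and 22 higher (22.2%), with a median of -0.64. Beside them, 41.9% of all tested genes were lower and 7138 of 19465 higher. Receptors and co-receptors were lower in 11 of 15 and higher in 1 before the correction, and lower in 12 and higher in 1 after it.

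Levels can be compared between genes only per length, here as CPM per kilobase of exon. In fetal WT the order was Ctnnb1 at 162 ± 8.65, Tcf7l2 at 30.5 ± 4.04, Wnt7b at 23.9 ± 1.44, Axin2 at 11.5 ± 0.387, Wnt7a at 9.26 ± 0.499 and Lrp6 at 9.06 ± 0.424 CPM per kilobase (SD, n = 3). Below them came Tcf7l1 at 5.06 ± 1.15, Wnt5a at 4.66 ± 0.527, Lrp5 at 3.63 ± 0.49 and Lef1 at 3.13 ± 0.316 CPM per kilobase. The ranges of Wnt7a and Lrp6 overlapped, as did each neighbouring pair from Tcf7l1 to Lef1, so their order is not resolved. It also depends on the length used: per kilobase of the longest transcript the first 4 places were the same in fetal WT, but Lef1 was seventh, at 7.53, and Lrp5 last, at 3.98 CPM per kilobase.

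In fetal KO Ctnnb1 at 71.3 ± 5.14, Tcf7l2 at 12.7 ± 0.483, Wnt7b at 8.46 ± 0.406 and Axin2 at 7.51 ± 0.352 CPM per kilobase kept the first 4 places (SD, n = 3). Lrp6 at 6.33 ± 0.333, Wnt7a at 4.77 ± 0.76 and Wnt5a at 2.45 ± 0.236 CPM per kilobase followed. Lef1 at 0.969 ± 0.0672 and Lrp5 at 0.895 ± 0.0369 CPM per kilobase overlapped, and Tcf7l1 was lowest at 0.602 ± 0.0297. At week 70 Ctnnb1 had 85.5 and 95.4 CPM per kilobase and Wnt7b was second, with 9.44 and 10.3. Axin2 at a mean of 6.78, Wnt7a at 6.5 and Lrp6 at 4.22 CPM per kilobase came next without overlap. Lrp5, Tcf7l2, Wnt5a and Tcf7l1 overlapped with their neighbours between means of 1.96 and 1.29 CPM per kilobase, and Lef1 was lowest, at 0.853. Per kilobase of the longest transcript Lef1 was instead eighth, at 2.05, and Wnt5a lowest, at 1.45, while Tcf7l2 was sixth, at 4.49. Tcf7l2, second in both fetal groups with either length, had a lower mean than Wnt7b, Axin2, Wnt7a and Lrp6 at week 70 with either length.

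Ratios within a library do not depend on the scaling of library sizes, and are given as descriptions. They were not corrected for length and GC content, which fold changes between the fetal groups followed. The GC content was 59.4% for Wnt7b and 55.4% for Wnt7a, and 54.7% for Lrp5 and 46% for Lrp6. It was 59.3% for Tcf7l1, 46.1% for Lef1 and 47.3% for Tcf7l2, and 54.6% for Axin2 and 50.3% for Ctnnb1. The ratio of Wnt7b to Wnt7a was 2.66, 2.55 and 2.54 in fetal WT, 1.64, 1.69 and 2.06 in fetal KO, and 1.59 and 1.45 at week 70. Wnt7b exceeded Wnt7a in every library, and every KO library had a lower ratio than every WT library. The ratio of Lrp5 to Lrp6 was 0.44, 0.358 and 0.403 in fetal WT, 0.142, 0.155 and 0.129 in fetal KO, and 0.413 and 0.513 at week 70. Lrp6 was thus above Lrp5 in all 8 libraries, and fetal KO stood below both other groups.

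Among the TCF and LEF genes the ratio of Tcf7l1 to Tcf7l2 was 0.21, 0.122 and 0.172 in fetal WT, 0.0476, 0.0464 and 0.0479 in fetal KO, and 1.28 and 0.492 at week 70. The ratio of Lef1 to Tcf7l2 was 0.106, 0.0979 and 0.105 in fetal WT, 0.0817, 0.0803 and 0.0672 in fetal KO, and 0.875 and 0.315 at week 70. Both ratios were lowest in fetal KO and highest at week 70, where replicate 1 was above replicate 2. The ratio of the target Axin2 to the effector Ctnnb1 was 0.0704, 0.069 and 0.0741 in fetal WT, 0.0993, 0.112 and 0.105 in fetal KO, and 0.0793 and 0.071 at week 70. For this pair all fetal KO libraries lay above all other libraries.

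**Figure D5:**
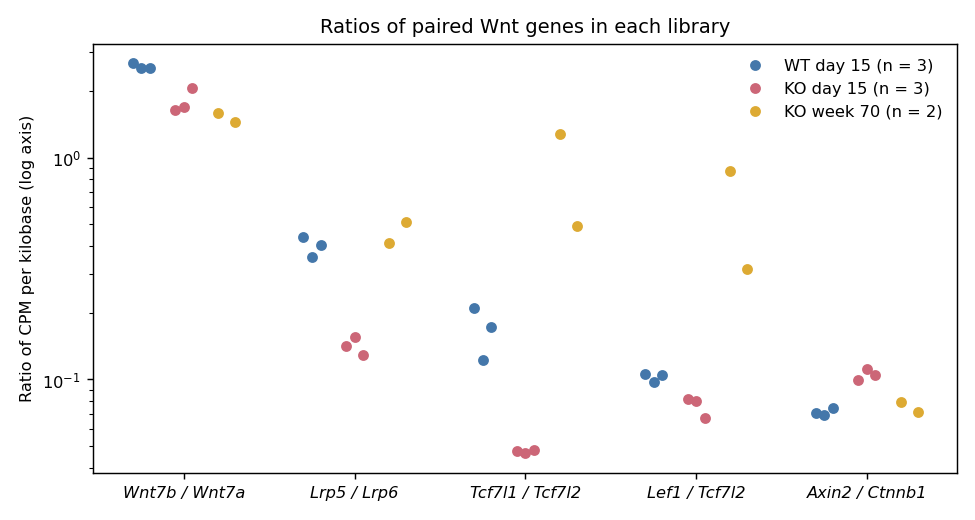
Ratios of exon-length-scaled levels (CPM per kilobase) between pairs of Wnt genes on a log axis, 1 point per library. Fetal KO points lie below fetal WT points for Wnt7b to Wnt7a, Lrp5 to Lrp6, Tcf7l1 to Tcf7l2 and Lef1 to Tcf7l2, and above them for Axin2 to Ctnnb1.

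Exons of 6 of the genes overlap an annotated gene on the opposite strand that has its own row in the table, and without a stated use of strand such reads cannot be assigned with certainty. The overlaps were 358 bases for Wnt5a, 324 for Wnt7b, 759 for Ctnnb1 with Ulk4, 209 for Axin2, 1208 for Lef1 and 179 for Tcf7l1. These neighbours had at most 36 counts beside Wnt5a, 75 beside Wnt7b, 204 beside Ctnnb1, 16 beside Axin2, 21 beside Lef1 and 6 beside Tcf7l1.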

How the data were processed

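Poly-A selected RNA of 8 whole-brain libraries was sequenced, and per the file headers the authors deposited counts of reads for each Ensembl gene in 1 table, not normalised. The submitters' processing notes name FastQC, cutadapt, Trimmomatic, HISAT2, featureCounts and edgeR and the builds GRCm38 and GRCm39. What each did, which annotation served, whether strand was used and how multi-mapping reads were treated are not given in the sources used here. Groups followed the sample titles. No 2 libraries agreed within sampling noise.

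Each pair of groups was tested with edgeR 4.0.16 in R 4.3.3 on the counts of the libraries compared, with filterByExpr, scaling by the trimmed mean of M values (TMM), the two-sided quasi-likelihood F-test and Benjamini-Hochberg adjustment over all tested genes (threshold 0.05). All 10 genes passed the filter in each comparison. The procedure was also run on simulated counts in which few genes changed and no length or GC trend was built in. These data differ from that setting in both respects, so the simulation does not test the calls made here. Levels are CPM with TMM factors over all 8 libraries. A count of 0 allows up to 3 counts, 0.14 to 0.207 CPM by library, and covers counting error only. Positions, exon lengths and GC content are from GENCODE M21 on GRCm38, matched for 97.3% of genes, and promoters from RefSeq. The length and GC correction smoothed each library's deviation on the length and GC content of the longest transcript with mgcv 1.9.3. It entered the result as an offset. P-values set the difference between groups against the variation between these libraries. Any pooling behind that variation is not given in the labels. Alternatives were RLE and upper-quartile scaling, other filters, DESeq2 1.42.0, 1 fit of all 8 libraries, the replicate number as a block and leaving out each library.

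The 10 genes and the lists were chosen with earlier results of these data known. From each of 9 pathway lists the text names up to the 3 genes with the highest mean CPM, Cav1 checks the genotype, and any other gene was chosen after its values were seen. Cell type marker lists, Xist and Y-linked counts and pseudogene shares describe the libraries.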

Additional observations from a re-analysis of the deposited data

How the results depend on the processing

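Of the alternatives for the single-gene fold changes, 146 of 150 kept direction and side of the threshold between the fetal groups, 112 of 140 between week 70 KO and fetal KO, and 140 of 140 between week 70 KO and fetal WT. The values that turned sign were Axin2 between the fetal groups, at 0.05 with the length and GC correction and at 0.05 with the replicate block and the correction, and 3 genes between week 70 KO and fetal KO. There Wnt7a was at -0.29 with the correction and -0.37 with block and correction, Wnt7b at -0.12 with upper-quartile scaling, -0.90 with the correction and -0.87 with both, and Ctnnb1 at -0.01, -0.01 and -0.02. In that comparison RLE scaling (0.21), both other filters (0.23 and 0.21) and the block (0.21) also ended the call of Ctnnb1, and the fit of all 8 libraries ended that of Axin2 (-0.15) and gave calls for Wnt7a (0.45) and Wnt7b (0.22). The cause was not tested.

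Leaving out each library in turn gave 10 to 10, 5 to 7 and 10 to 10 of the 10 genes called in the 3 comparisons, and 10998 to 11365, 15534 to 16923 and 14105 to 15366 of all genes. With the replicate block 10, 6 and 10 of the genes were called, with 11184, 14876 and 13244 of all genes, and with block and correction 8, 5 and 10. The numbers did not pair the samples: deviations of same-numbered fetal libraries correlated at -0.15, -0.18 and -0.16, and no fetal library correlated best with its own number. Same-numbered libraries of week 70 correlated at 0.04 and 0.01 with fetal KO and at -0.03 and -0.03 with fetal WT. Both week 70 libraries had to stand for their group, and depth limited low genes to the floor of 3 counts, which all 10 Wnt genes exceeded in every library.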
